A study of Mus musculus with 15 samples.

Results

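The genes described here are 10 members of bone morphogenetic protein (BMP) signalling, measured in sorted cells of the developing mouse pancreas. They are the inhibitors of DNA binding Id1, Id2, Id3 and Id4, the ligands Bmp4 and Bmp7, the receptors Bmpr1a and Bmpr2, and the inhibitory Smads Smad6 and Smad7. They were chosen by name out of 19938 genes that had a probe set naming them alone. Each had 1 such probe set, and all 10 were among the 16883 genes bright enough to be tested.

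The study hybridised RNA of sorted pancreatic cells to 15 Affymetrix mouse gene arrays, 3 for each of 5 groups, all on a CD1 background. Sox9-GFP+ cells carried the Sox9-EGFP transgene and were collected for high GFP at embryonic stages e10.5 and e15.5 and at postnatal stage p23, all counted in days. Sox9 marks the multipotent progenitors of the early bud and later the ducts. Ngn3-GFP+ cells carried Ngn3-EGFP and were collected at e15.5 as the newly formed endocrine lineage, and GFP- cells were the negative fraction of Sox9-EGFP pancreas at p23. Cells of several animals were pooled before each sort. The labels do not say whether the 3 arrays of a group came from separate pools, so the p-values measure the spread between these arrays. They also do not say whether the GFP+ and GFP- sorts at p23 came from the same pools.

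BMP ligands are secreted dimers that bring type I receptors such as Bmpr1a together with the type II receptor Bmpr2. The receptors phosphorylate Smad1, Smad5 and Smad9, which enter the nucleus with Smad4 and switch on targets. The Id genes are the best known of these targets. Id proteins have a helix-loop-helix but no DNA-binding region, and they hold E proteins such as Tcf3, Tcf4 and Tcf12 away from the tissue-specific partners with which these bind DNA; Neurog3 and Neurod1 are such partners in the endocrine lineage. Smad6 and Smad7 are also induced by the pathway and shut it down by blocking receptors and Smads. In the early foregut, BMP signals from nearby mesoderm take part in the choice between liver and pancreas.

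The promoters of 3 Id genes are shown because Smads bind Id promoters through short GC-rich elements, and because these 3 genes behaved differently from each other. Windows of 250 bases before the RefSeq start on GRCm38.p6 were searched for 7 of the 10 genes: Id2, Id3, Id4, Bmp4, Bmpr1a, Bmpr2 and Smad6. Id1 and Bmp7 had no window in the promoter set, and Smad7 was left out of the search. The windows shown are written 5′ to 3′ on the gene's strand. Capitals mark the palindromic GC-rich Smad element GGCGCC and the Smad-binding element CAGAC or its reverse complement GTCTG.
Id2, chr12:25096093-25096342, minus strand: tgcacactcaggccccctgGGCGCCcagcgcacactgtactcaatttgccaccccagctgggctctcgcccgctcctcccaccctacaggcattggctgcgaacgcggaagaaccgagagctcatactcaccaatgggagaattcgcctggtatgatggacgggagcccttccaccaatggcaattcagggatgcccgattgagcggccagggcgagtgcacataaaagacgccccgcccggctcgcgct
Id3, chr4:136143572-136143821, plus strand: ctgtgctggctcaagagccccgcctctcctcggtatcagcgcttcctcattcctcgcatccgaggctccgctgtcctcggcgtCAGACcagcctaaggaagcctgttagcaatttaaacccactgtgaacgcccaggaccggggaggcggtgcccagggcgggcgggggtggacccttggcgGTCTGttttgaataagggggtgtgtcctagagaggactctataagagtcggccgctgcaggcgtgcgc
Id4, chr13:48260866-48261115, plus strand: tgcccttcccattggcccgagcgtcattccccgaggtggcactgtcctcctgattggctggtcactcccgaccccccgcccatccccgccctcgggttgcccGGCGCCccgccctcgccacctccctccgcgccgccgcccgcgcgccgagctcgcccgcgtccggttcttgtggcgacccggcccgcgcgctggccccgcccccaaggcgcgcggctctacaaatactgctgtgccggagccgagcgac

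In these windows Id2 held 1 GGCGCC, with its first base at -231 from the start, and Id4 held 1 at -148. Id3 held no GGCGCC but 2 matches of CAGAC or GTCTG, at -167 and -68. Outside the Id genes, Bmpr1a held GGCGCC at -198 and Bmpr2 at -105, and the windows of Bmp4 and Smad6 held neither element. Over 32851 RefSeq windows of this length, searched on both strands, 9.59% held GGCGCC and 42.2% held CAGAC or GTCTG. The core TGACG of the cyclic AMP response element, searched as TGACG or CGTCA and present in 17.8% of all windows, lay at -170 in Id3 and -229 in Id4. None of the 7 windows held the exact TATA box letters TATAAA or TTTATA, which 12.4% of all windows did. Variants of the TATA box were not searched, so the windows may still hold such an element. The bipartite element GGCGCCNNNNNGTCT was in none of the 7, and in 0.07% of all windows. The windows were rich in G and C, at 62.8% for Id2, 62.8% for Id3 and 75.6% for Id4 beside a median of 52.4%. A match here is a run of letters, not a measured binding site.

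All levels are log2(intensity + 16) of the deposited array values, and differences are on that scale, which understates the changes of dim genes. Intensities of different probe sets are not comparable, so a level is set only against the same gene in other groups. A limma fit of all 15 arrays gave each change, and those of adjusted p under 0.05 (Benjamini-Hochberg, over the 16883 genes) are the changes called here. Sox9 itself lay between 11.62 and 12.14 in the 9 Sox9-GFP+ arrays and between 8.68 and 11.21 in the other 6. Neurog3 did not separate the e15.5 sorts, with 11.66 to 12.12 in Sox9-GFP+ cells and 11.53 to 12.21 in Ngn3-GFP+ cells.

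The sorts also carried other cells. Over 10 leukocyte markers the summed intensity was 59434 to 81189 in GFP- cells, 2052 to 5283 in Sox9-GFP+ cells at p23 and at most 1588 in embryonic arrays. The defining marker Ptprc was 14.28, 14.41 and 14.64 in GFP- cells. It was 8.12, 10.64 and 10.09 in Sox9-GFP+ cells at p23, so that arrays 2 and 3 of that group stood above the first. All 10 endothelial markers were above the 30th percentile of the table in GFP- cells, and 9 to 10 in Sox9-GFP+ arrays of p23. Their sum was 4315 to 4989 in GFP- cells against 1582 to 1936 in Sox9-GFP+ cells at p23. Pecam1 (mean 10.56 against 7.77) and Emcn (9.56 against 7.22) differed most. Esam (7.54 against 7.55) and Plvap (7.58 against 7.61) hardly differed. Of the cells the GFP- sort was meant to hold, acinar markers were bright, with a mean over 5 genes of 12.12 to 12.39. Of the 6 endocrine markers, Pax6 and Neurod1 stayed under the 30th percentile in every array of that sort. The other 4 were above it in every array, with Ins2 at 11.11 to 11.97 and Gcg at 9.33 to 10.44. The embryonic globin Hbb-y was high in arrays 1 and 2 at e10.5 (10.48 and 11.20). It was also high in array 1 of the Sox9-GFP+ sort of e15.5 (9.98), and no other array passed 6.35. At e10.5 the globins Hba-x (8.67, 8.74 and 7.06) and Hbb-bh1 (6.65, 6.88 and 5.88) were also lowest in array 3. The erythroid genes Alas2 (7.35, 8.12 and 8.89) and Klf1 (7.03, 6.98 and 7.46) were highest there. In array 1 of e15.5 Hba-x (7.25) and Alas2 (7.73) were the highest of the 3 arrays. Klf1 (6.77) was the lowest, and Hbb-bh1 (5.53) lay between. Acinar and endocrine markers also moved with stage in the Sox9-GFP+ sort. The acinar mean was 6.98 to 7.09 at e10.5, 10.71 to 11.30 at e15.5 and 11.31 to 11.56 at p23, and 9.82 to 10.27 in Ngn3-GFP+ cells. The mean of the 6 endocrine markers was 10.90 to 11.27 at e10.5 and 11.73 to 12.08 at e15.5, 12.51 to 12.75 in Ngn3-GFP+ cells, and 7.64 to 8.81 in both p23 sorts together. In bulk RNA of such sorts, fewer cells of a type and less RNA per cell cannot be told apart.

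**Figure D1:**
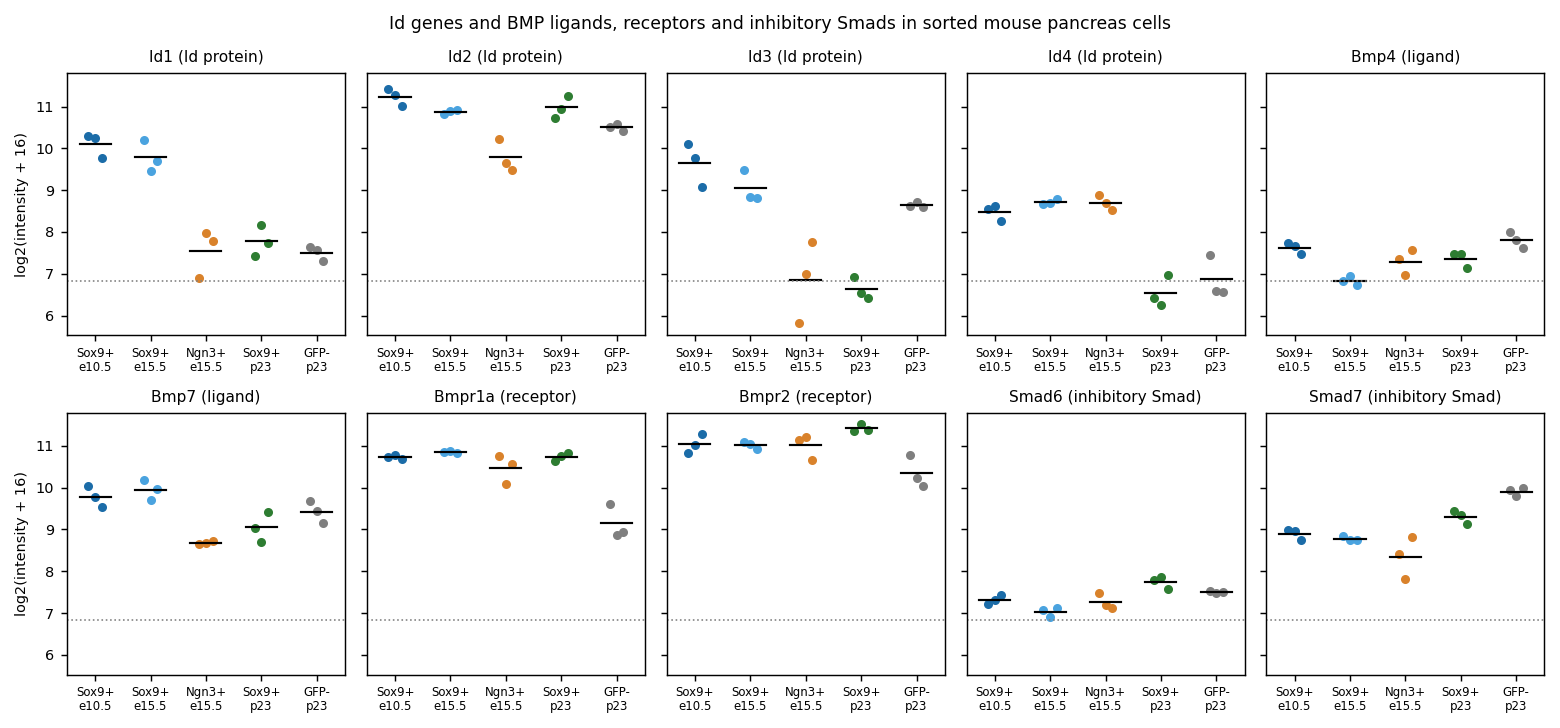
Levels of the 10 genes, log2(intensity + 16), in each of the 15 arrays; dots are arrays, black lines group means, and the dotted line is the 30th percentile of all values (6.83). Id1, Id3 and Id4 stand high in Sox9-GFP+ cells of both embryonic stages and low in those of p23, while Id2, Bmpr1a and Bmpr2 stay within narrow bands in Sox9-GFP+ cells.

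From e10.5 to e15.5 most of these genes changed little in the Sox9-GFP+ sort. The test called 1 of the 10, lower, where 28.2% of all tested genes were called, 12.2% higher and 16% lower. That background itself rests on single arrays: 1840 to 5952 of all genes were called with each array left out, against 4754 with all, and without array 3 of e15.5 (1840 genes) 59.3% of the calls were higher. In 5 of the 10 the arrays of the 2 stages did not overlap, as in 57.3% of all genes. The step from e15.5 to p23 held more: 3 members were higher and 4 lower, where 57.5% of all genes were called, 30.7% higher and 26.8% lower. The arrays did not overlap for 8 members and for 72.7% of all genes. From e10.5 to p23, 1 member was higher and 4 were lower, beside 41.0% of all genes, of which 17.7% higher and 23.3% lower. The arrays did not overlap for 7 members and 50.9% of all genes.

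Ngn3-GFP+ cells differed from the Sox9-GFP+ sort of the same stage in 5 members, 1 higher and 4 lower. Of all genes 41.7% were called there, 23.3% higher and 18.4% lower, and arrays did not overlap for 6 members and 56.2% of all genes. At p23 the Sox9-GFP+ sort was higher than GFP- cells in 2 members and lower in 3, beside 36.0% of all genes, 21.5% higher and 14.5% lower. Arrays did not overlap for 7 members and 47.3% of all genes. The test thus called many genes in every comparison, and the results below are which members moved and how far.

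Among the 10 members the largest changes with stage were those of Id3, Id1 and Id4. From e15.5 to p23 Id1, Id3 and Id4 fell in the Sox9-GFP+ sort, each by more than 2 on the log2 scale, and Id2 was not called. At e15.5 the split was another: Id1, Id2 and Id3 were lower in Ngn3-GFP+ cells and Id4 was not called. Over all 15 arrays the SD of Id3 was larger than that of 94.9% of the tested genes, that of Id1 than 94.0%, that of Id4 than 91.1% and that of Id2 than 74.6%.

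Id1, the classic immediate target of BMP receptors, was 10.29, 10.24 and 9.76 in the e10.5 arrays and 10.20, 9.46 and 9.70 in the e15.5 arrays of the Sox9-GFP+ sort. It was 7.42, 8.17 and 7.74 in Sox9-GFP+ cells at p23, 6.89, 7.98 and 7.79 in Ngn3-GFP+ cells, and 7.64, 7.57 and 7.30 in GFP- cells. The 6 embryonic Sox9-GFP+ arrays were all above the 9 others, whose groups overlapped each other. Id1 fell by 2.01 ± 0.28 (SE, 3 arrays per group) from e15.5 to p23, 4.03-fold, with an adjusted p of 5.76e-05 by limma. From e10.5 to p23 it fell by 2.32 ± 0.28, and the change from e10.5 to e15.5 was -0.31 ± 0.28 (limma adjusted p = 0.407). Ngn3-GFP+ minus Sox9-GFP+ cells gave -2.23 ± 0.28 at e15.5, 4.70-fold lower, with a limma adjusted p of 0.0002. The p23 sorts overlapped, with a difference of 0.27 (95% interval -0.32 to 0.86).

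Id3, another early target of BMP receptors, was 10.11, 9.76 and 9.06 at e10.5 and 9.47, 8.83 and 8.82 at e15.5 in Sox9-GFP+ cells, and 6.91, 6.55 and 6.43 at p23. The p23 values were at the floor of the table, with 1 of 3 arrays above the 30th percentile. Id3 fell by 2.41 ± 0.38 from e15.5 to p23, 5.33-fold (limma adjusted p = 0.000175), and it fell by 3.02 ± 0.38 from e10.5 to p23, 8.10-fold (limma adjusted p = 1.7e-05).

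In Ngn3-GFP+ cells Id3 was 5.81, 6.99 and 7.75, the widest spread of any member within a group (SD 0.98), and still below every Sox9-GFP+ array of e15.5. The difference was -2.19 ± 0.38, with a limma adjusted p of 0.00145. Unlike Id1, Id3 was not low in every p23 sort: GFP- cells had 8.62, 8.71 and 8.60. Sox9-GFP+ minus GFP- cells gave -2.01 ± 0.38 (4.04-fold lower, limma adjusted p = 0.000684). The GFP- arrays are those with the high leukocyte and endothelial marker sums given above. Over 10 mesenchyme markers the sum was 9101 to 10626 in GFP- cells and 7081 to 7739 in Sox9-GFP+ cells at p23. Of these markers Vim alone was lower in GFP- cells (mean 11.35 against 11.75). The part of any of these cells in the Id3 level was not tested. In the Sox9-GFP+ array of p23 with the least Ptprc, the first, Id3 was higher than in the other two, and the difference from GFP- cells with that array alone was -1.73 ± 0.57 (limma adjusted p = 0.0431).

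Id4, often described as the odd member of the family because it can oppose the others, held a separate pattern. It was 8.54, 8.62 and 8.25 at e10.5, 8.67, 8.69 and 8.79 at e15.5, and 6.41, 6.25 and 6.97 at p23 in Sox9-GFP+ cells. Ngn3-GFP+ cells had 8.88, 8.70 and 8.52, and GFP- cells 7.44, 6.59 and 6.56. Every embryonic array of either reporter was thus above every p23 array of either sort. The endocrine marker means given above divide the arrays the same way, with Neurod1 at 10.28 to 11.11 in the embryonic arrays and 4.35 to 6.58 at p23. Of these markers Ins2 alone did not. It was 8.38 to 9.07 at e10.5, against 10.39 to 10.70 in Sox9-GFP+ cells and 11.11 to 11.97 in GFP- cells at p23. The part of endocrine cells in the falls of Id1, Id3 and Id4 was not tested. Id4 fell by 2.18 ± 0.23 from e15.5 to p23, 4.52-fold, with a limma adjusted p of 4.32e-06. Between the e15.5 sorts its difference was -0.01 ± 0.23, with a 95% interval of -0.50 to 0.47 that leaves out the sizes seen for Id1, Id2 and Id3. With 1 of 3 arrays of each p23 sort above the 30th percentile, the fall may be larger than the scale shows.

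Id2, which is expressed in many epithelia and can hold back Neurod1, stayed bright throughout. Sox9-GFP+ cells had 11.42, 11.27 and 11.01 at e10.5, 10.82, 10.88 and 10.91 at e15.5, and 10.73, 10.95 and 11.26 at p23. The change from e15.5 to p23 was 0.11 ± 0.18, with a 95% interval of -0.28 to 0.50, so a fall of the size of Id1, Id3 or Id4 lies outside it. Ngn3-GFP+ cells had 10.23, 9.66 and 9.48, the lowest of the 5 groups, with a difference from Sox9-GFP+ cells of -1.08 ± 0.18 (2.11-fold lower, limma adjusted p = 0.00123). GFP- cells lay between, at 10.52, 10.59 and 10.41. They did not overlap Sox9-GFP+ cells of p23, and the difference of 0.47 ± 0.18 missed the threshold with a limma adjusted p of 0.0562.

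**Figure D2:**
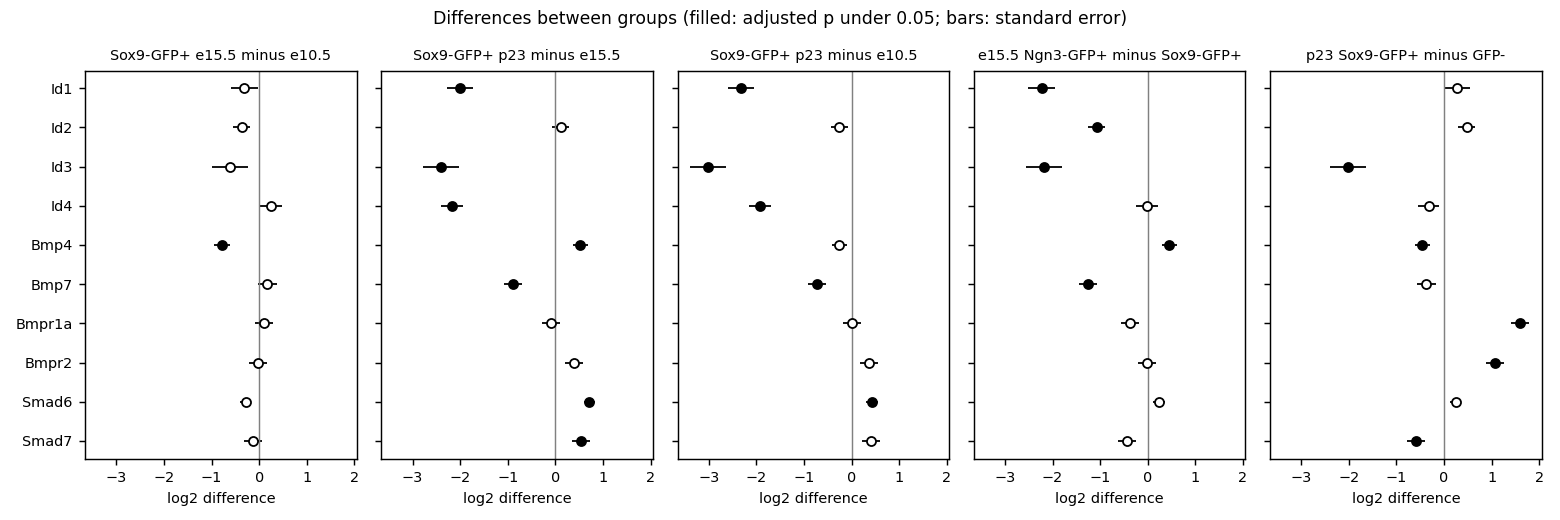
Differences of the 10 genes in the 5 comparisons, on the log2(intensity + 16) scale; points are limma estimates, bars 1 SE, and filled points passed an adjusted p of 0.05. The Id genes reach -3.02, whereas no difference of Bmp4, Smad6 or Smad7 exceeds 0.78 in size.

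The 2 ligands moved apart from each other. Bmp7, a ligand made by many epithelia, was lower in Ngn3-GFP+ cells and lower at p23, as Id1 was, by smaller amounts. Sox9-GFP+ cells had 10.03, 9.77 and 9.53 at e10.5, 10.18, 9.70 and 9.96 at e15.5, and 9.04, 8.70 and 9.42 at p23. Ngn3-GFP+ cells had 8.64, 8.68 and 8.73, below every Sox9-GFP+ array of the same stage. That difference was -1.26 ± 0.19, 2.40-fold, with a limma adjusted p of 0.000679. Bmp7 fell by 0.89 ± 0.19 from e15.5 to p23 (limma adjusted p = 0.00168) and fell by 0.72 ± 0.19 from e10.5 to p23 (limma adjusted p = 0.00742). Without the embryonic arrays of high Hbb-y the last value was -0.47 ± 0.27 and was not called (limma adjusted p = 0.251). GFP- cells had 9.67, 9.44 and 9.15 and overlapped Sox9-GFP+ cells of p23.

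Bmp4, the ligand most used to raise BMP signalling in culture, was dim in every group. It was 7.72, 7.66 and 7.47 at e10.5, 6.83, 6.95 and 6.72 at e15.5 and 7.47, 7.48 and 7.13 at p23 in Sox9-GFP+ cells. Ngn3-GFP+ cells had 7.34, 6.96 and 7.57 and GFP- cells 8.01, 7.82 and 7.62. Sox9-GFP+ cells of e15.5 were thus the lowest group, and all 3 of their arrays lay under all others. Bmp4 fell by 0.78 ± 0.16 from e10.5 to e15.5 (1.72-fold, limma adjusted p = 0.00388) and rose by 0.52 ± 0.16 to p23 (limma adjusted p = 0.0131). It was higher in Ngn3-GFP+ than in Sox9-GFP+ cells by 0.45 ± 0.16 (limma adjusted p = 0.036), and Sox9-GFP+ minus GFP- cells gave -0.45 ± 0.16 (limma adjusted p = 0.0385).

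Dim genes as a class were low in Sox9-GFP+ cells of e15.5. Of 5641 tested genes whose mean lay below the median of the table, as those of Bmp4 and Smad6 did, 29.7% were called lower and 3.88% higher from e10.5 to e15.5. From e15.5 to p23, 51.2% of them were called higher and 8.85% lower, and 43.7% were called higher in Ngn3-GFP+ cells. Among the 11242 brighter genes, the shares called higher were 20.4% from e15.5 to p23 and 13.1% in Ngn3-GFP+ cells. After quantile normalization of the arrays Bmp4 changed by 0.27 ± 0.16 from e15.5 to p23 and by 0.19 ± 0.16 between the e15.5 sorts, and neither was called (limma adjusted p = 0.171 and 0.378). From e10.5 to e15.5 it then fell by 0.55 and was still called (limma adjusted p = 0.0277). Without the embryonic arrays of high Hbb-y that fall was -0.63 ± 0.27 and was not called (limma adjusted p = 0.111).

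Neither receptor was called between stages of the Sox9-GFP+ sort. Bmpr1a, a type I receptor, was 10.73, 10.78 and 10.69 at e10.5, 10.84, 10.87 and 10.83 at e15.5, and 10.65, 10.75 and 10.83 at p23. The change from e10.5 to p23 was 0.01, with a 95% interval of -0.39 to 0.41, and from e15.5 to p23 it was -0.10, with an interval of -0.50 to 0.30. Id1, Id3 and Id4 were called lower in both of these comparisons. Of 9 other receptors and co-receptors, 2 were called higher and 2 lower from e10.5 to p23, among them Acvr2b at -1.97 ± 0.26. The part of receptor levels in the Id changes was not tested. Ngn3-GFP+ cells had 10.77, 10.08 and 10.56, a difference of -0.38 that was not called (limma adjusted p = 0.12).

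GFP- cells stood apart, with Bmpr1a at 9.62, 8.87 and 8.95, under all 12 other arrays. Sox9-GFP+ minus GFP- cells gave 1.60 ± 0.19, 3.03-fold, with a limma adjusted p of 9.89e-06. Bmpr2, the type II receptor that binds BMPs, was also lowest in GFP- cells, where its range met that of Ngn3-GFP+ cells. It was 10.84, 11.03 and 11.28 at e10.5, 11.10, 11.05 and 10.93 at e15.5 and 11.37, 11.51 and 11.38 at p23 in Sox9-GFP+ cells. In Ngn3-GFP+ cells it was 11.14, 11.22 and 10.66, and in GFP- cells 10.79, 10.23 and 10.04. Sox9-GFP+ minus GFP- cells gave 1.06 ± 0.19, 2.09-fold (limma adjusted p = 0.000416), and Bmpr2 was called in none of the other 4 comparisons of groups. Its arrays of p23 were nonetheless above those of both embryonic stages, with 0.39 ± 0.19 from e15.5 (limma adjusted p = 0.0891) and 0.37 ± 0.19 from e10.5 (limma adjusted p = 0.137). With only the Sox9-GFP+ array of low Ptprc the differences were 1.502 ± 0.28 for Bmpr1a and 1.01 ± 0.28 for Bmpr2, and both were still called. The part of leukocytes in the GFP- level was not tested.

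The inhibitory Smads were higher at p23 than at e15.5, while Id1, Id3 and Id4 fell. Smad6, which acts mainly against BMP receptors and Smad1, was 7.22, 7.31 and 7.42 at e10.5, 7.07, 6.90 and 7.12 at e15.5 and 7.80, 7.85 and 7.58 at p23 in Sox9-GFP+ cells. Ngn3-GFP+ cells had 7.49, 7.19 and 7.12, and GFP- cells 7.53, 7.47 and 7.50. The 3 Sox9-GFP+ arrays of p23 were above all 12 others. Smad6 rose by 0.71 ± 0.12 from e15.5 to p23 (1.64-fold, limma adjusted p = 0.000327) and by 0.43 ± 0.12 from e10.5 to p23 (limma adjusted p = 0.0107). It is dim, and after quantile normalization the rise from e15.5 to p23 was 0.52 ± 0.10 and still called. Without the embryonic arrays of high Hbb-y the rise from e10.5 was 0.32 ± 0.19 and was not called (limma adjusted p = 0.267).

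Smad7, which blocks TGF-beta as well as BMP receptors, was 8.996, 8.96 and 8.75 at e10.5, 8.84, 8.74 and 8.74 at e15.5 and 9.45, 9.35 and 9.13 at p23 in Sox9-GFP+ cells. GFP- cells had 9.94, 9.79 and 9.99, above every other array. Ngn3-GFP+ cells had 8.40, 7.81 and 8.81 and overlapped Sox9-GFP+ cells of e15.5. Smad7 rose by 0.54 ± 0.19 from e15.5 to p23 (1.45-fold, limma adjusted p = 0.0269). Sox9-GFP+ minus GFP- cells gave -0.60 ± 0.19 (limma adjusted p = 0.0229). With only the Sox9-GFP+ array of low Ptprc these were 0.67 ± 0.28 and -0.46 ± 0.28, and neither was called (limma adjusted p = 0.0663 and 0.26).

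Immediate early genes, which respond to handling as well as to signals, moved with the stage. The summed intensity of 10 of them was 58868 to 66699 in Sox9-GFP+ cells at p23, against 11160 to 21587 at e15.5, 7673 to 10490 in Ngn3-GFP+ cells, 3101 to 3534 at e10.5 and 27956 to 36862 in GFP- cells. Smad7 and Id1 are both genes that respond quickly to signals; the part of dissociation in their levels was not tested.

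**Figure D3:**
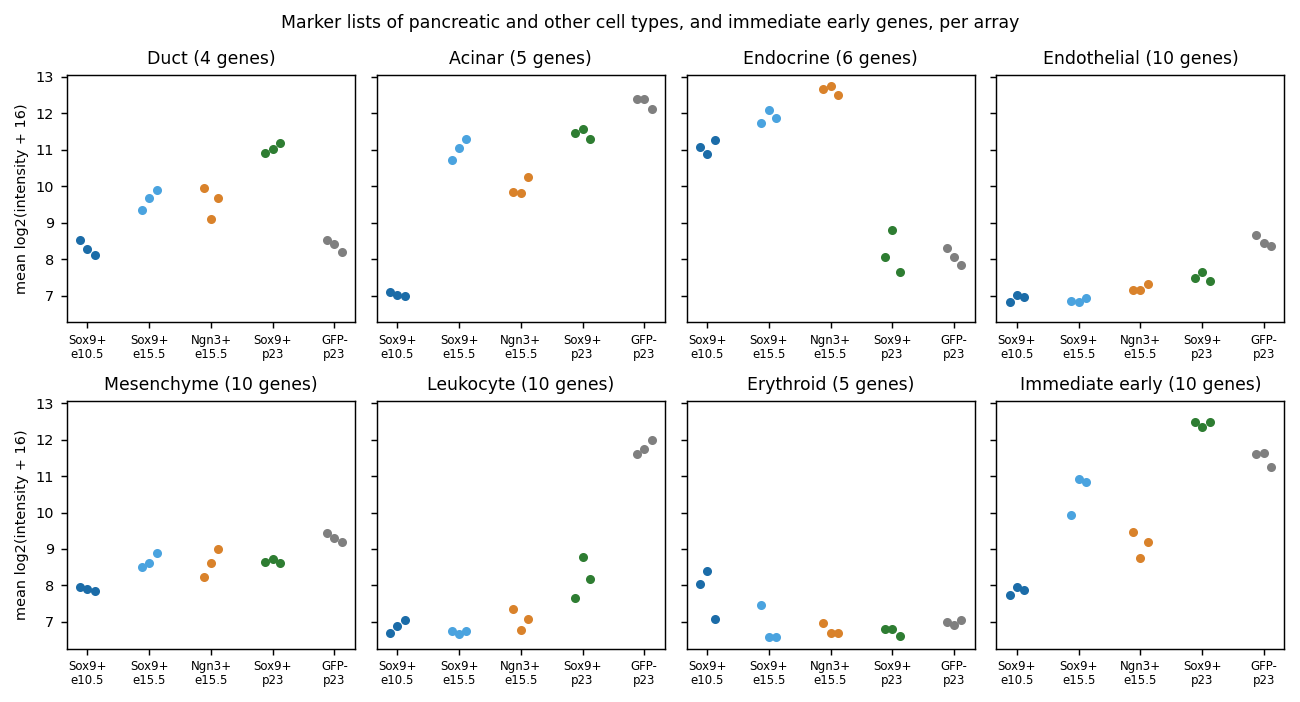
Mean log2(intensity + 16) of each marker list in each of the 15 arrays; dots are arrays, coloured by group. Leukocyte markers stand at 11.60 to 11.99 in GFP- cells and immediate early genes at 12.34 to 12.49 in Sox9-GFP+ cells of p23.

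The sort contrast itself differed between stages for 7 of the 10 genes, where 45.3% of all genes were called. This is Sox9-GFP+ minus GFP- cells at p23 less Sox9-GFP+ minus Ngn3-GFP+ cells at e15.5, so the cells on the other side of the sort differ as well as the age. Id3 gave -4.20 ± 0.54 (limma adjusted p = 4.02e-05): it was higher in Sox9-GFP+ than in Ngn3-GFP+ cells in the embryo and lower in Sox9-GFP+ than in GFP- cells at p23. Id1 gave -1.96 ± 0.39 and Bmp7 -1.63 ± 0.27. The receptors went the other way, with 1.22 ± 0.27 for Bmpr1a and 1.04 ± 0.27 for Bmpr2. Id2, Id4 and Bmp4 were not called, with -0.60, -0.34 and 0.00.

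Of 58 other gene names of the pathway fixed in a list, 56 were measured and 53 tested. Hfe2 and Hjv in that list name the same gene, which was measured as Hjv. Bmp10, Gdf2 and Msx2 were too dim. From e10.5 to e15.5, 5 were higher and 14 lower, which is 35.8% called beside 28.2% of all genes, with a median change of -0.16 beside -0.05. From e15.5 to p23, 27 were higher and 7 lower, 64.2% beside 57.5% of all genes, with a median of 0.26 beside 0.05. From e10.5 to p23, 13 were higher and 8 lower, 39.6% beside 41.0%. In Ngn3-GFP+ against Sox9-GFP+ cells, 16 were higher and 7 lower, 43.4% beside 41.7%. In Sox9-GFP+ against GFP- cells at p23, 18 were higher and 5 lower, 43.4% beside 36.0%. Of the 53, 23 lay below the median of the table, where the shift of dim genes given above applies; among the 9 other ligands 6 did, and 7 of those 9 were higher at p23 than at e15.5.

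In each comparison of stages the largest rise among these 53 genes was that of an extracellular antagonist. Cer1, a secreted antagonist known from the early embryo, was 8.34, 8.30 and 8.28 at e10.5, 10.30, 9.94 and 9.78 at e15.5 and 4.37, 4.69 and 4.22 at p23 in Sox9-GFP+ cells. Ngn3-GFP+ cells had 9.12, 9.57 and 9.74, and GFP- cells 4.27, 4.71 and 4.50. It rose by 1.70 ± 0.18 and then fell by 5.58 ± 0.18 (limma adjusted p = 7.46e-11) to values under the filter. Both p23 sorts were low and both e15.5 sorts high.

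Chrdl1, a chordin-like antagonist of Bmp4, also rose and fell in the Sox9-GFP+ sort and differed between the e15.5 sorts. Sox9-GFP+ cells had 7.49, 7.45 and 7.37 at e10.5, 9.71, 9.37 and 9.53 at e15.5 and 7.61, 7.52 and 7.67 at p23. It rose by 2.10 ± 0.17, fell by 1.94 ± 0.17, and Ngn3-GFP+ minus Sox9-GFP+ cells gave -1.72 ± 0.17 (limma adjusted p = 4.39e-05). The group in which Bmp4 was lowest was thus the group in which Chrdl1 was highest. Bmp4 is dim, and the shift of dim genes given above applies to its level there. A link between the levels of these genes was not tested.

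Sostdc1, which binds BMPs and also the Wnt co-receptor, rose at each stage. It was 6.06, 5.78 and 5.24 at e10.5, 7.49, 7.94 and 8.21 at e15.5 and 8.54, 9.26 and 8.99 at p23, and highest in GFP- cells at 10.92, 10.72 and 10.92. Its rise from e10.5 to p23 was 3.24 ± 0.30 (9.42-fold, limma adjusted p = 9.51e-07), and Sox9-GFP+ minus GFP- cells gave -1.93 ± 0.30. Crim1, a membrane protein that holds BMPs back, rose by 1.53 ± 0.18 from e15.5 to p23 (limma adjusted p = 1.24e-05). Twsg1, a modulator of chordin, was 1.15 ± 0.12 higher in Sox9-GFP+ than in GFP- cells (limma adjusted p = 2.33e-06).

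**Figure D4:**
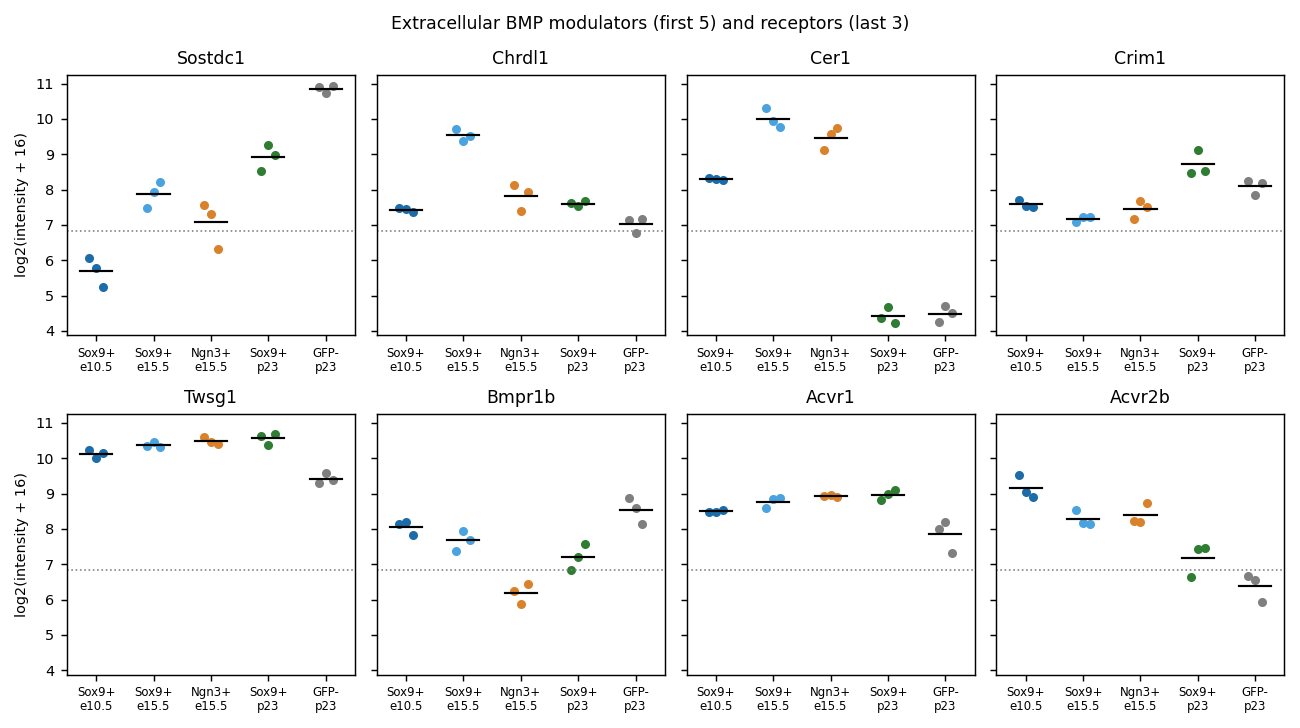
Levels of 8 other BMP pathway genes, log2(intensity + 16), in each of the 15 arrays; dots are arrays, black lines group means and the dotted line the 30th percentile. Chrdl1 is highest in Sox9-GFP+ cells of e15.5, Sostdc1 in GFP- cells, and Cer1 is high in both e15.5 sorts and low in both p23 sorts.

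Of the other receptors, Acvr2b, Bmpr1b and Acvr1 had the largest called differences. Acvr2b, a type II receptor shared with activin, fell by 1.97 ± 0.26 from e10.5 to p23. Bmpr1b, the other BMP type I receptor, was lower in Ngn3-GFP+ than in Sox9-GFP+ cells (-1.49 ± 0.23, limma adjusted p = 0.00069) and lower in Sox9-GFP+ than in GFP- cells at p23 (-1.34 ± 0.23), so it went against Bmpr1a at p23. Acvr1, a type I receptor that binds Bmp7, was 1.13 ± 0.17 higher in Sox9-GFP+ than in GFP- cells. Of the 4 signal-carrying Smads, 3 were also higher there, beside 21.5% of all genes, with 0.76 ± 0.18 for Smad1, 0.73 ± 0.11 for Smad5 and 0.44 ± 0.16 for Smad4.

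All 3 listed E proteins that Id proteins bind were lower from e10.5 to p23 in the Sox9-GFP+ sort, beside 23.3% of all genes. The changes were -1.51 ± 0.18 for Tcf3, -0.77 ± 0.11 for Tcf4 and -0.40 ± 0.12 for Tcf12. From e15.5 to p23 Tcf3 fell by 1.29 ± 0.18 (limma adjusted p = 7.08e-05) and Tcf4 fell by 0.58 ± 0.11, and Tcf12 was not called. None of the 3 was called between the e15.5 sorts, where Id1, Id2 and Id3 and 41.7% of all genes were. Tcf4 was lower in Sox9-GFP+ than in GFP- cells at p23 (-1.04 ± 0.11), and Tcf4 is also abundant in some leukocytes. Hey1, a target of BMP and Notch signals, fell by 0.86 ± 0.21 from e10.5 to e15.5 and was lower in Ngn3-GFP+ cells (-0.90 ± 0.21). Zfp423, a zinc finger partner of the BMP Smads, fell by 2.18 ± 0.20 from e10.5 to p23. Over that time Tob1, which restrains BMP Smads, rose by 1.40 ± 0.15 and the ligand Bmp2 by 1.15 ± 0.21, and Skil, a Smad corepressor, rose by 0.92 ± 0.24 from e15.5 to p23. The largest differences toward Ngn3-GFP+ cells were small, at 0.59 for Dlx5, 0.51 for Eng and 0.49 for Gdf5. The means of Dlx5 and Eng lay below the median of the table, where the shift of dim genes given above applies. That of Gdf5 lay above it. Bambi, a decoy receptor, was 1.00 ± 0.19 higher in Sox9-GFP+ than in GFP- cells at p23.

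The genes whose pattern over the 15 arrays was most like each member's were searched among 4845 tested genes of SD 0.5 or more; the arrays form 5 groups, so the correlations are descriptions. For Id1 they were Lama1 (r = 0.954), Cdca7 and Raet1d, and for Id2 Zfp623 (r = 0.901), Fv1 and Mtbp. For Id3 they were Rcl1 (r = 0.921), Tmem47 and Slc2a3, and for Id4 Ndn (r = 0.977), Sgsm1 and Gjd2. No gene was shared between the Id lists. For Bmpr1a they were Dnal1 (r = 0.982), Etl4 and Onecut1, and for Bmpr2 Btbd8 (r = 0.930), Rnf152 and Mindy4. For Bmp4 they were Gnb4 (r = 0.835), Prdm1 and S100g, and for Bmp7 Nde1 (r = 0.912), Rfc4 and Nhp2. For Smad6 they were Csf1r (r = 0.930), Glipr2 and Arid5a; Csf1r is on the leukocyte list but unlike Ptprc was not brighter in GFP- cells (mean 7.99) than in Sox9-GFP+ cells of p23 (mean 8.29). For Smad7 they were Btg1 (r = 0.957), Ncoa3 and Myc.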

How the data were processed

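RNA of 15 sorts (20 ng total RNA each) was amplified with the NuGEN Ovation system, and 3.75 ug of cDNA was labelled and hybridised, per the labels' protocols. The authors made 1 linear intensity per probe set and array with Affymetrix Expression Console 1.1 and its PLIER method (per the submitters' processing notes). Any scaling between arrays is not given in the sources used for these values. The deposited table holds 35557 probe sets, with array medians between 165.5 and 211.7.

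Probe sets naming 1 gene (21789, for 19938 genes) were used, and where a gene had several the one with the highest mean stood for it. Genes above 97.8, the 30th percentile, in at least 3 arrays were tested (16883). Values were taken as log2(intensity + 16) and fitted with limma 3.58.1 in R 4.3.3, with a mean per group over all 15 arrays and Benjamini-Hochberg adjustment over all tested genes; the fit was tested on simulated data. Exact tests of 3 against 3 arrays cannot go below p = 0.1. The precision is limited by 3 arrays per group.

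The members and the gene lists were chosen with earlier results of these data known. Of the other pathway genes, up to 3 rises and 3 falls per comparison were named, the largest that were called and without overlap of arrays; the Smads and E proteins were named after their values were seen; for each member, the 3 genes of highest correlation. Alternatives were other offsets, scalings, filters and probe set rules, fits of the compared groups alone, a replicate block and each array left out. Same-numbered arrays did not deviate together (correlations from -0.49 to 0.20), so the numbers were not used to pair samples. Leaving out the arrays of high Hbb-y or Ptprc was added after the data were seen. Promoter sequences and starts are RefSeq's on GRCm38.p6.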

Additional observations from a re-analysis of the deposited data

Results flagged for a closer look

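The difference between the sorts was not the same at both stages for 7 genes, by the interaction term of the limma fit: (Sox9-GFP+ minus GFP-) at p23 less (Sox9-GFP+ minus Ngn3-GFP+) at e15.5. The values were -4.20 for Id3 (adjusted p = 4.02e-05), -1.96 for Id1 (adjusted p = 0.00146), -1.63 for Bmp7 (adjusted p = 0.000374) and -1.03 for Smad7 (adjusted p = 0.00778). They were 1.22 for Bmpr1a (adjusted p = 0.00269), 1.04 for Bmpr2 (adjusted p = 0.0069) and 0.48 for Smad6 (adjusted p = 0.0346). The median over all tested genes was 0.18, and it was 0.05 with arrays centred on their median, where Smad6 gave 0.34 and was not called (adjusted p = 0.101). Age and the kind of comparison cell cannot be told apart in this contrast.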

How the results depend on the processing

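Of 30 called differences of the members, 20 kept their call in every alternative run that tested the gene. The other 10 lost it in at least 1, and 0 turned sign. The 10 were all 4 calls of Bmp4, the calls of Smad7 from e15.5 to p23, between the p23 sorts and in the interaction, the calls of Bmp7 and Smad6 from e10.5 to p23, and Smad6 in the interaction. A filter at the median of the table removed Smad6 from the tests. The number of members called from e10.5 to e15.5 was 1; it was 2 after quantile normalization, 2 with only the groups compared, and 0 by limma without the arrays of high Hbb-y, where 1 member had an unadjusted p under 0.05. Across the whole span to p23 the number was 5, and 3 without the arrays of high Hbb-y. Between the p23 sorts it was 5, and from 3 (without GFP- array 1) to 6 with each array left out. Such fits hold fewer arrays, and the causes of the changed counts were not tested. Leaving out the arrays of high Hbb-y left 1 array at e10.5, and leaving out those of high Ptprc left 1 Sox9-GFP+ array at p23; such a lone array is assumed to vary like the other groups.

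The replicate block, with the replicate number as a term, gave 1, 7, 5, 5, 5 and 6 members in the 5 comparisons and the interaction; it ended only the call of Smad6 in the interaction (limma adjusted p = 0.053). Some differences near 0, none of them called, changed sign. After quantile normalization these were Bmp7 (-0.0030) and Bmpr1a (-0.016) from e10.5 to e15.5, Bmpr1a (0.019) from e15.5 to p23, and Id4 (0.19) and Bmpr2 (0.11) between the e15.5 sorts. Without the Sox9-GFP+ p23 arrays of high Ptprc they were Id2 from e15.5 to p23 (-0.14), Bmpr1a from e10.5 to p23 (-0.089), Id1 between the p23 sorts (-0.082) and Bmp4 in the interaction (0.11). Bmpr2 between the e15.5 sorts was 0.018 without the embryonic arrays of high Hbb-y, and Bmp4 in the interaction was 0.016 with an offset of 1. With each array left out, the ranges that crossed 0 were -0.12 to 0.094 for Bmpr2 from e10.5 to e15.5, -0.028 to 0.24 for Id2 from e15.5 to p23, -0.036 to 0.059 for Bmpr1a from e10.5 to p23, -0.11 to 0.075 for Id4 and -0.13 to 0.15 for Bmpr2 between the e15.5 sorts, and -0.14 to 0.17 for Bmp4 in the interaction.

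The background moved too. Of all genes, 4754 were called from e10.5 to e15.5, against 2836 after quantile normalization, 7149 with only the groups compared and 2673 without the arrays of high Hbb-y. Between the e15.5 sorts 7034 were called, against 4115 after quantile normalization, and from e10.5 to p23 6916, against 3559 without the arrays of high Hbb-y. With each array left out, the e10.5 to e15.5 count was 1896 without array 3 and 2179 without array 2 of e10.5, 1840 without array 3 and 2168 without array 2 of Sox9-GFP+ e15.5, and at most 5952; in those 4 fits 54.9% to 60.7% of the calls were higher, against 43.3% with all arrays. Between the e15.5 sorts 3757 were called without Sox9-GFP+ array 3 and 4644 without Sox9-GFP+ array 2. Centring each array on its median lowered the share of higher genes among those called from 59.6% to 44.6% between the p23 sorts and from 59.7% to 45.7% in the interaction.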
